A study of Mus musculus with 24 samples.

Results

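The genes described here are the core genes of N6-methyladenosine (m6A) RNA methylation: the writers Mettl3, Mettl14 and Wtap, the erasers Fto and Alkbh5, the readers Ythdf1, Ythdf2, Ythdf3 and Ythdc1, and the methionine adenosyltransferase gene Mat2a. They were taken by gene symbol and are 10 of the 54532 genes in the count table. All 10 passed the expression limit that left 22570 genes for testing, with 455 to 11956 reads per gene and library. RNA was sequenced from whole kidneys of 24 mice aged 18 days, labelled C57BL/6 (C57BL/6 J in the study's methods), all of which carried the RC missense allele of Pkd1, the gene mutated in most polycystic kidney disease. In RC/+ kidneys (n = 3) the other Pkd1 copy was floxed but not deleted, and in RC/- kidneys (n = 5), labelled cystic, it was deleted by Ksp-Cre, a recombinase driven by a promoter of kidney tubule epithelium, so that Cre and the cystic genotype cannot be told apart. The edited lines lack the binding motif of the microRNA miR-17 in the 3′ UTR of their RC allele. The D18 and D53 lines each derive from a single founder, and each was sequenced without Cre (RC/+ D18, n = 3, and RC/+ D53, n = 3) and with Cre (RC/- D18, n = 5, and RC/- D53, n = 5).

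N6-methyladenosine is the most common internal modification of messenger RNA. METTL3 transfers the methyl group and METTL14 holds the RNA within the same heterodimer, WTAP anchors this pair to its accessory subunits, and FTO and ALKBH5 are demethylases. The YTHDF proteins bind the mark in the cytoplasm, where YTHDF2 is known for promoting RNA decay, and YTHDC1 binds it in the nucleus. MAT2A makes S-adenosylmethionine (SAM), the methyl donor of the writers, outside the liver.

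Mat2a is the member whose own RNA is a known m6A substrate: METTL16 binds and methylates hairpins in its 3′ UTR that hold the letters TACAGAGAA, which regulates the splicing and stability of the RNA. A search of the sense strand of the annotated 3′ UTRs of the 10 genes (GENCODE M21, GRCm38) found these 9 letters 5 times in Mat2a, all in exon 9 of 9 on the minus strand, and in none of the other 9 genes. The same letters occurred in 2.29% of the 2658 3′ UTRs within 20% of its length of 1494 bases. The sites are shown, with 10 flanking bases on each side and the searched letters in capitals, because Mat2a gave the clearest difference among the 10 genes.
Mat2a site 1, chr6:72434245-72434253: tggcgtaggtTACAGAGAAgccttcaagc
Mat2a site 2, chr6:72433461-72433469: ccttgtgataTACAGAGAAgtcacagggc
Mat2a site 3, chr6:72433282-72433290: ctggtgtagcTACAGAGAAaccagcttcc
Mat2a site 4, chr6:72433167-72433175: atggcgtaagTACAGAGAAgccatcacct
Mat2a site 5, chr6:72432948-72432956: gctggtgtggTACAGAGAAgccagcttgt

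Since the edited lines lack a miR-17 motif in Pkd1, the 3′ UTRs were also searched for GCACTTT, the complement of bases 2 to 8 of miR-17-5p. These letters occurred 1 time each in Fto, Alkbh5 and Ythdf3, all on the plus strand, and in none of the other 7 genes, beside 11.1% of all 20675 annotated 3′ UTRs. Among 3′ UTRs within 20% of the length of each gene's own, the share was 17.5% for Fto, 30.5% for Alkbh5 and 24.5% for Ythdf3. The mature microRNA (RefSeq, GRCm38) is shown with its seed in capitals, and the sites with the matching letters in capitals, because they are the places where the microRNA could pair with a member. A match is a description of the sequence only.
miR-17-5p: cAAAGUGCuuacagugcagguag
Fto, chr8:91668279-91668285: cgtcccagcaGCACTTTctagagctgc
Alkbh5, chr11:60555849-60555855: tgtgtgtgcaGCACTTTgccctaatat
Ythdf3, chr3:16214200-16214206: acttcatgaaGCACTTTgtgtcctgaa

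The libraries held 20379982 to 30837488 counts in total. Markers of tubule, collecting duct, podocyte, macrophage and fibroblast were all detected in every group, as a kidney would give. Levels are given in CPM, the read count scaled to the total of its library. The summed level of 10 proximal tubule markers was 8580 to 9220 CPM in RC/+ and 1920 to 4720 CPM in RC/-, whereas 8 macrophage markers summed to 220 to 238 CPM in RC/+ and 419 to 748 CPM in RC/-. The RC/- D18 kidneys had sums of 7750 to 10800 and 278 to 302 CPM, and the RC/- D53 kidneys of 6150 to 7780 and 301 to 416 CPM. In the RC/+ D18 and RC/+ D53 kidneys the proximal tubule sum was 9270 to 11400 and 8470 to 9250 CPM. Against RC/+ D53, 6 of 8 macrophage and 4 of 7 collecting duct markers were called higher in RC/- D53, where 2.60% of all genes were called. Against RC/+ D18, 0 of 8 macrophage and 1 of 7 collecting duct markers were called in RC/- D18, beside 0.266% of all genes. No proximal tubule, podocyte or fibroblast marker was called in either comparison. Libraries numbered 20 to 27, which are 3 of the RC/- D18 and all 5 of the RC/- D53 kidneys, stood apart in 6 skeletal muscle markers, with summed levels of 147 to 194 CPM against 5.27 to 9.36 CPM in the other 16, so that these libraries and the RC/- D53 group cannot be told apart. Pkd1 itself had group means of 50.7 to 61.7 CPM. Its counts hold the reads of all Pkd1 alleles, and it was called in none of the comparisons.

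Per kilobase of annotated exon, Mat2a had the highest level of the 10 RNAs and the catalytic pair the lowest. Mat2a had a mean level of 80.4 ± 9.13 CPM per kilobase of annotated exon (RPKM; SD, n = 24), and its lowest library, at 61.6 RPKM, was above every library of every other member. Ythdf3 (23.9 ± 1.68 RPKM) and Alkbh5 (22.7 ± 2.18 RPKM) came next and overlapped. Ythdf1 (16.9 ± 1.57 RPKM) followed, overlapping Alkbh5 above and Wtap (12.3 ± 0.769 RPKM) below. Ythdf2 (9.26 ± 1.11 RPKM) overlapped Wtap and lay above every library of Ythdc1 (7.02 ± 0.382 RPKM), which overlapped Fto (5.69 ± 0.339 RPKM). Mettl3 (4.26 ± 0.371 RPKM) and Mettl14 (3.91 ± 0.433 RPKM) overlapped each other and lay below every library of Fto. Exons of rare isoforms lengthen the divisor, which lowers the RPKM of Fto and Ythdc1 in particular, with 13031 and 13651 annotated exon bases. It also lowers that of Mettl3, Mettl14 and Wtap, with 5076, 7419 and 6248 exon bases beside main transcripts of 2025, 2741 and 2060. Alkbh5 has 5987 exon bases beside a main transcript of 5730. The order of the genes below Mat2a is therefore given for this divisor only. All 10 RNAs were steady over the 24 kidneys, the highest library being 1.23 (Ythdc1) to 1.63 (Mettl14) times the lowest in CPM.

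**Figure D1:**
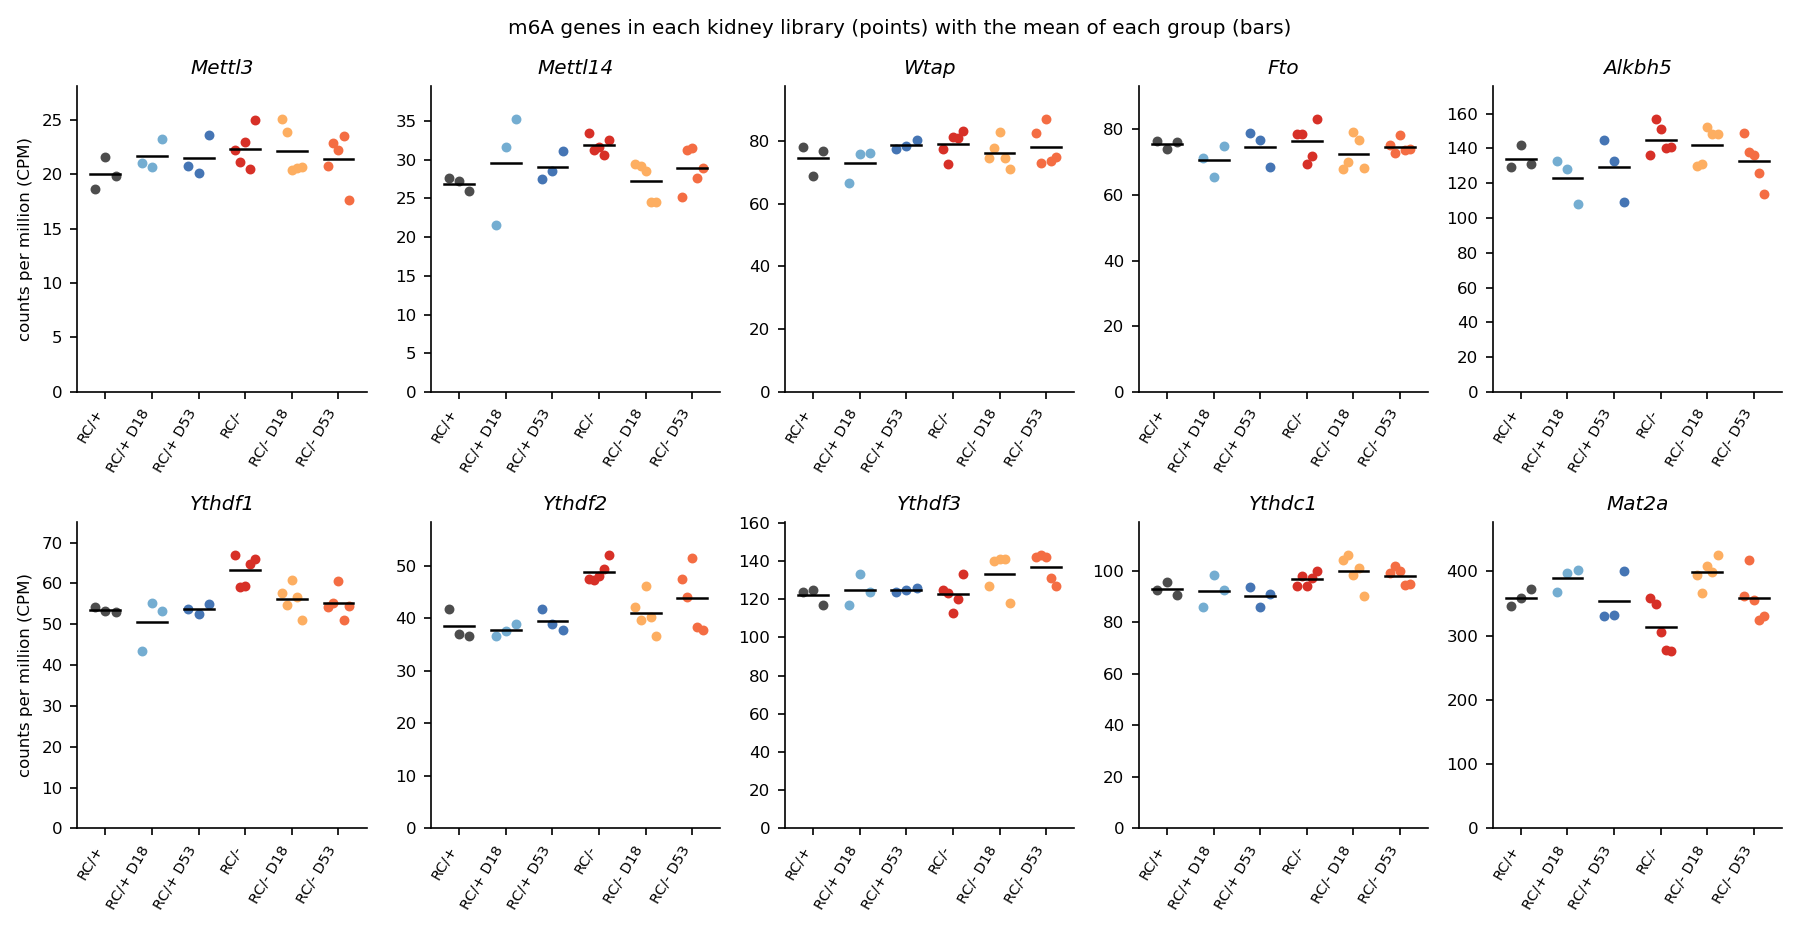
Level of each of the 10 m6A genes in CPM (y axis, from 0) in the 24 kidneys, by group (x axis). Each point is a library and each bar the mean of a group. The 5 RC/- libraries of Ythdf2 (47.3 to 52 CPM) lie above the 3 RC/+ libraries (36.6 to 41.7 CPM), and the 5 RC/- D18 libraries of Mat2a (367 to 425 CPM) lie above those of RC/- (276 to 359 CPM).

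Differences between groups were tested on log2 CPM by limma-trend over all 22570 genes, with Benjamini-Hochberg adjusted p values, and a gene was called below 0.05. The comparisons of RC/- with RC/+, of RC/- D18 with RC/- and of RC/- D53 with RC/- share the RC/- libraries and are not independent of each other. The median of all genes was 0.14 higher in RC/- than in RC/+ on the log2 scale, 0.10 lower in RC/- D18 than in RC/-, and 0.08 lower in RC/- D53 than in RC/-. Since several members moved by no more than that, the differences of the members in these 3 comparisons are given both by library totals and with TMM factors, which place the bulk of the genes at no difference. In whole kidney, fewer cells of a type and less RNA per cell cannot be told apart.

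Among the writers no gene was called in any comparison by limma-trend over all 24 libraries, with library totals or TMM factors. Mettl3, the catalytic subunit, had 18.6, 21.6 and 19.8 CPM in the RC/+ libraries and 22.2, 21.1, 23, 20.5 and 25 CPM in the RC/- libraries. The groups overlapped, and the difference was 0.16 on the log2 scale (95% confidence interval -0.05 to 0.37, adjusted p = 0.219) by library totals and 0.02 with TMM factors. Mettl3 had means of 22.1 ± 2.17 and 21.4 ± 2.37 CPM (SD, n = 5 each) in the RC/- D18 and RC/- D53 kidneys, and it differed from RC/- by -0.02 (interval -0.19 to 0.16) and -0.07 (interval -0.25 to 0.11) by library totals, and by 0.10 and 0.02 with TMM factors.

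Mettl14, the RNA-binding partner, came closer to the threshold. Its levels were 27.6, 27.3 and 25.9 CPM in RC/+, 33.4, 31.2, 31.7, 30.6 and 32.6 CPM in RC/-, and 29.5, 29.2, 28.6, 24.5 and 24.5 CPM in RC/- D18. Every RC/- library was above every RC/+ and every RC/- D18 library. The RC/- D53 libraries, at 25.2 to 31.5 CPM, overlapped RC/-, with a log2 difference of -0.15 (adjusted p = 0.288; -0.06 with TMM factors). The log2 differences were 0.24 ± 0.113 (SE; adjusted p = 0.0942) for RC/- against RC/+ and -0.23 ± 0.0974 (adjusted p = 0.062) for RC/- D18 against RC/-, and with TMM factors 0.10 (adjusted p = 0.436) and -0.11 (adjusted p = 0.293). Each passed in 1 of the 9 other settings, the limma-trend fit to only the groups compared, with adjusted p of 0.0208 and 0.0295. That fit leaves out the spread of all other groups, among them the wide RC/+ D18 libraries (21.6, 31.7 and 35.3 CPM). Which of them mattered was not tested. Wtap, the scaffold, had group means of 72.9 to 79.2 CPM, and its log2 differences in the same 3 comparisons were 0.09, -0.06 and -0.02, each of which changed sign with TMM factors (-0.05, 0.06 and 0.07).

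Neither eraser was called in any comparison by library totals or with TMM factors. Fto had group means of 70.5 to 76.3 CPM, with log2 differences of 0.01 for RC/- against RC/+, -0.08 for RC/- D18 against RC/- and -0.03 for RC/- D53 against RC/-, all of which changed sign with TMM factors (-0.13, 0.04 and 0.06). Alkbh5 had group means of 123 to 145 CPM and corresponding differences of 0.11, -0.04 and -0.14, which became -0.03, 0.08 and -0.05 with TMM factors. The 95% intervals in these 3 comparisons, by library totals, ran from -0.20 to 0.16 in all for Fto and from -0.30 to 0.31 for Alkbh5.

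Of the YTHDF readers, Ythdf1 and Ythdf2 were called by library totals and Ythdf3 under both scalings, in different comparisons. Ythdf2, the reader known for RNA decay, had 41.7, 37.1 and 36.6 CPM in RC/+ and 47.5, 47.3, 48, 49.3 and 52 CPM in RC/-. It had 42.2, 39.7, 46.1, 40.3 and 36.7 CPM in RC/- D18, and 47.5, 44.1, 51.5, 38.4 and 37.7 CPM in RC/- D53. The RC/- libraries lay above all those of RC/+ and RC/- D18, while RC/- D53 spanned both ranges.

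By library totals Ythdf2 was higher in RC/- than in RC/+ by 0.34 ± 0.089 on the log2 scale (1.27-fold, adjusted p = 0.00339), and by 0.20 with TMM factors, where it missed the threshold (adjusted p = 0.0545). It was lower in RC/- D18 than in RC/- by library totals (log2 difference -0.25 ± 0.0771, adjusted p = 0.00991), and -0.14 with TMM factors did not pass (adjusted p = 0.128). The difference of RC/- D53 from RC/- was -0.16 (adjusted p = 0.115), and -0.08 with TMM factors (adjusted p = 0.473). With both scalings the direction of Ythdf2 was the same in each of these comparisons, and only the size and the call depended on the scaling.

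Ythdf1, a cytoplasmic reader like Ythdf2, had 54.2, 53.2 and 52.9 CPM in RC/+ and 66.9, 59.1, 59.4, 64.8 and 66 CPM in RC/-. It had 57.6, 54.7, 60.9, 56.6 and 51.1 CPM in RC/- D18 and 54.3, 55.1, 60.7, 51 and 54.5 CPM in RC/- D53. The RC/- libraries were above all RC/+ libraries and overlapped 1 library each of RC/- D18 and RC/- D53. By library totals Ythdf1 was called higher in RC/- than in RC/+ (0.24 ± 0.0759, adjusted p = 0.0143), lower in RC/- D18 than in RC/- (-0.17 ± 0.0657, adjusted p = 0.0399) and lower in RC/- D53 than in RC/- (-0.20 ± 0.0657, adjusted p = 0.0246). With TMM factors the directions held and none was called (0.10, -0.05 and -0.11, adjusted p of 0.232, 0.465 and 0.143). The call in RC/- D18 was also lost without any 1 of libraries 13, 16, 17, 19, 21 or 22 (adjusted p of 0.0592 to 0.12), and the call in RC/- D53 without library 13, 16, 17 or 26 (adjusted p of 0.0516 to 0.0743).

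Ythdf3 was the most abundant of the cytoplasmic readers per length. It had 124, 125 and 117 CPM in RC/+, 125, 123, 113, 120 and 133 CPM in RC/-, and 142, 143, 142, 131 and 127 CPM in RC/- D53. RC/+ and RC/- overlapped (log2 difference 0.01, adjusted p = 0.952; -0.13 with TMM factors, adjusted p = 0.0967). Ythdf3 in RC/- D53 was higher than in RC/- by 0.16 ± 0.0588 (adjusted p = 0.047), with overlapping libraries, and by 0.24 with TMM factors (adjusted p = 0.000966). The first of these calls was lost without any 1 of libraries 13, 14, 15, 16, 23, 24 or 25 (adjusted p of 0.0583 to 0.134). The difference in RC/- D18 was 0.11 (adjusted p = 0.124), and 0.23 with TMM factors, which passed (adjusted p = 0.00101). With libraries 20 to 27 as a covariate, none of the YTHDF calls by library totals in RC/- D18 (Ythdf1 and Ythdf2, adjusted p of 0.165 and 0.0745) or RC/- D53 (Ythdf1 and Ythdf3, adjusted p of 0.35 and 0.411) held. Every RC/- D53 library is among libraries 20 to 27, so the covariate was set by the RC/- D18 libraries alone. The fit with it therefore cannot decide about the RC/- D53 calls.

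Ythdc1, the nuclear reader, had group means of 90.1 to 100 CPM. Its log2 differences were 0.06 for RC/- against RC/+, 0.05 for RC/- D18 against RC/- and 0.02 for RC/- D53 against RC/-. With TMM factors they were -0.08, 0.16 and 0.11, of which the RC/- D18 value passed (adjusted p = 0.00625).

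**Figure D2:**
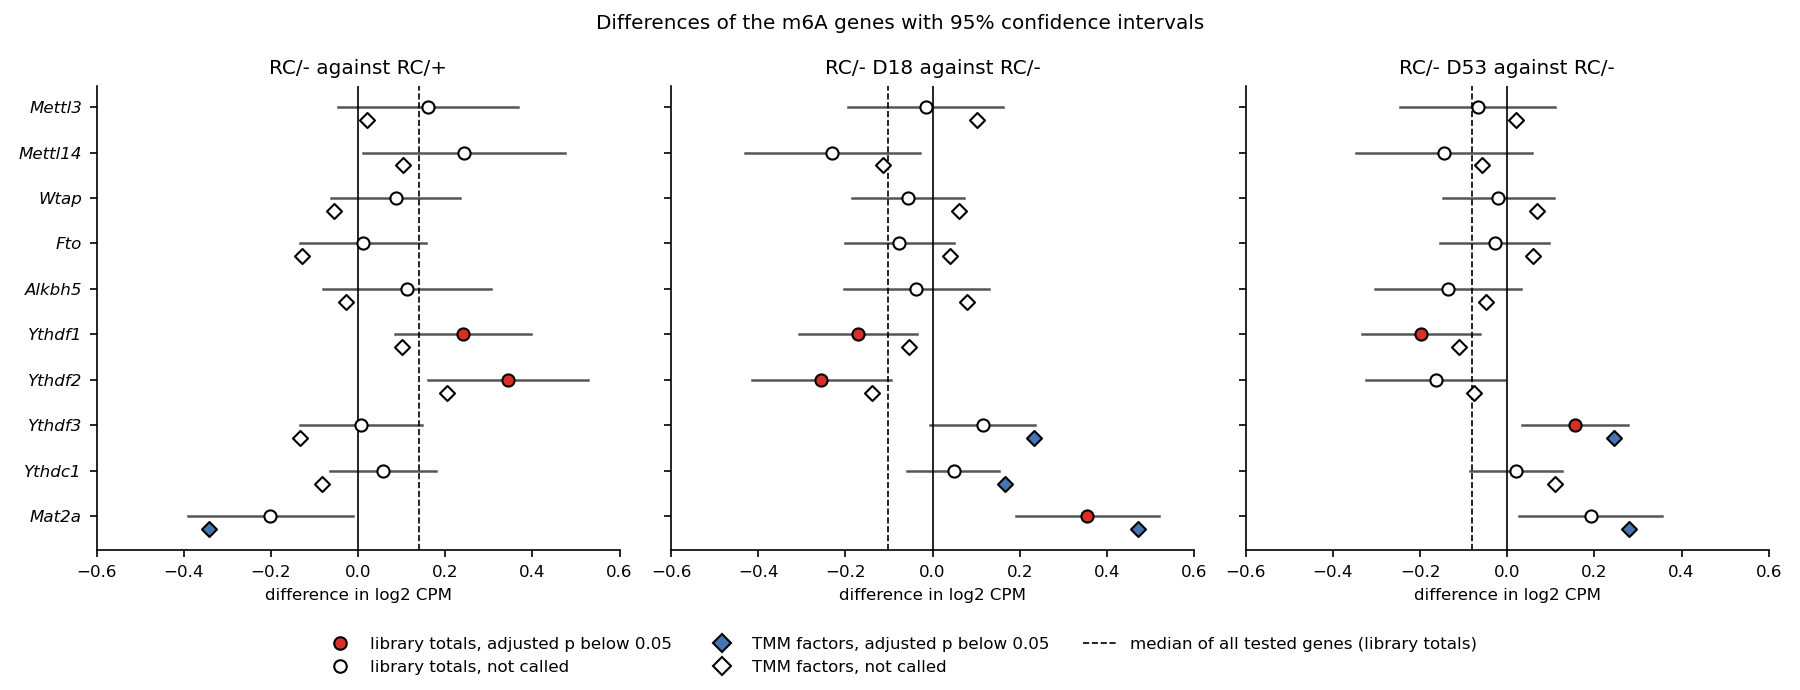
Log2 difference of each m6A gene (x axis, difference in log2 CPM) in the 3 comparisons that share the RC/- libraries. Circles are by library totals with 95% confidence intervals, diamonds with TMM factors, filled where the adjusted p was below 0.05, and the dashed line is the median of all tested genes. Mat2a in RC/- D18 against RC/- (0.35, and 0.47 with TMM factors) is the only value filled under both scalings in the middle panel.

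Ratios between members of the same library do not depend on its total or on TMM factors. The shares of Ythdf1, Ythdf2 and Ythdf3 in their summed RPKM were 34.1%, 17.8% and 48.2% in RC/+ (means, n = 3) and 36.2%, 20.3% and 43.5% in RC/- (n = 5). The share of Ythdf3 was 42.5% to 44.9% in the RC/- libraries and 47% to 50.9% in all the other 19 libraries, so the RC/- kidneys stood apart from every other group. The mean shares were 33.4%, 17.7% and 48.9% in RC/- D18, and in RC/- D53 they were 32.2%, 18.5% and 49.4%.

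In read counts the ratio of Ythdf2 to Ythdf3 was 0.381 to 0.424 in the RC/- libraries, 0.297 to 0.335 in RC/+, 0.284 to 0.333 in RC/- D18 and 0.294 to 0.363 in RC/- D53. The ratio of Ythdf1 to Ythdf3 was likewise 0.481 to 0.538 in RC/- and at most 0.455 in every other library. The ratio of Mettl3 to Mettl14 overlapped between all groups, with means of 0.701 (RC/-) to 0.814 (RC/- D18), and that of Fto to Alkbh5 overlapped between RC/- (0.461 to 0.589) and each other group. So did that of Mettl3 to Wtap (0.253 to 0.301 in RC/-). Mat2a to Mettl3 was 11 to 16.6 in RC/- and overlapped RC/- D18 (15.4 to 20.5) and RC/- D53 (13.7 to 18.8). Mat2a to Ythdf2 was 5.31 to 7.54 in RC/-, overlapping RC/- D53 (6.9 to 9.47) and below all libraries of the remaining groups. These ratios were looked at after the levels were known and are given as a description, without a test. Of single genes, 37.6% did not overlap between RC/- and RC/+. How often ratios of other genes set the RC/- libraries apart was not looked at.

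**Figure D3:**
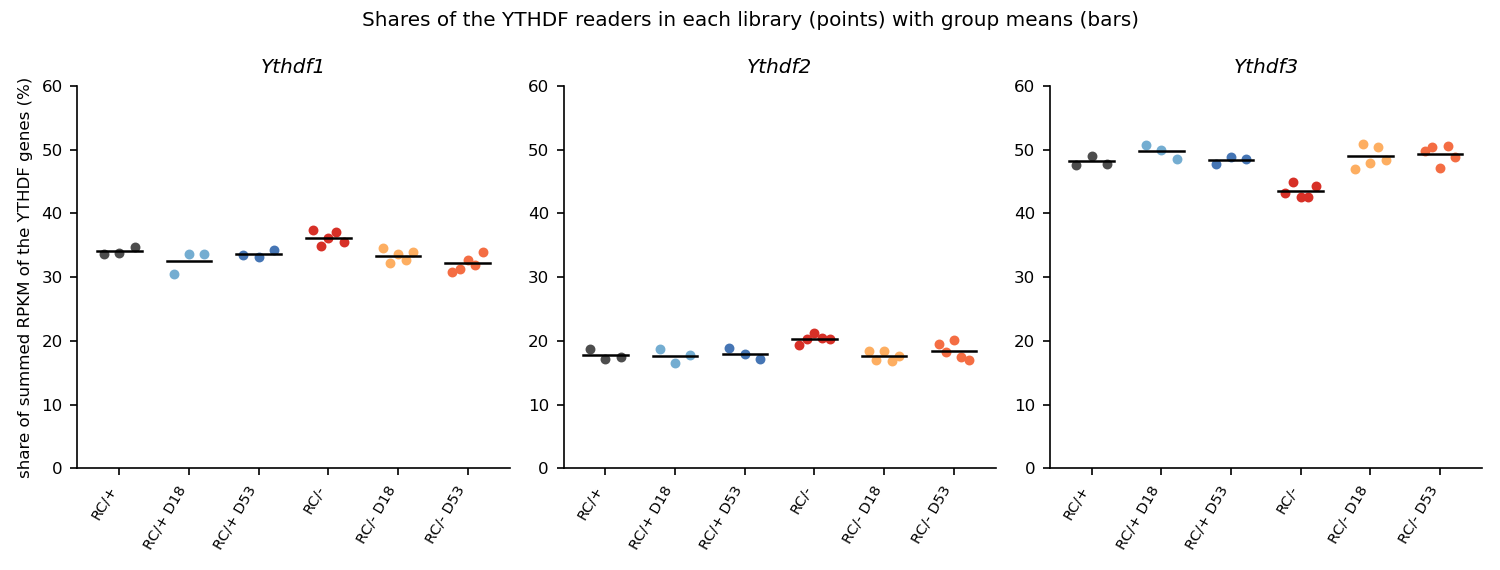
Share of Ythdf1, Ythdf2 and Ythdf3 in the summed RPKM of the 3 genes (y axis, percent) in each library, by group (x axis), with bars at the group means. The 5 RC/- libraries have Ythdf3 shares of 42.5% to 44.9%, below the 47% to 50.9% of all other libraries.

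Mat2a, the gene of the SAM synthetase whose 3′ UTR sites are printed above, had 346, 358 and 372 CPM in RC/+ and 359, 349, 306, 278 and 276 CPM in RC/-. It had 395, 367, 409, 399 and 425 CPM in RC/- D18 and 361, 418, 356, 324 and 330 CPM in RC/- D53. Of the RC/- libraries 3 of 5 were below every RC/+ library, and all 5 were below every RC/- D18 library.

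Mat2a was higher in RC/- D18 than in RC/- by 0.35 ± 0.0793 on the log2 scale (1.28-fold, adjusted p = 0.000819), and by 0.47 with TMM factors (adjusted p = 5.33e-05). Without libraries 20 to 27, which leaves 2 RC/- D18 kidneys, the difference was 0.29 with an adjusted p of 0.0513, and with these libraries as a covariate it was 0.29 with an adjusted p of 0.0421. Mat2a in RC/- D53 differed from RC/- by 0.19 ± 0.0793 (adjusted p = 0.0709) by library totals and by 0.28 with TMM factors, which passed (adjusted p = 0.0111). With libraries 20 to 27 as a covariate the RC/- D53 difference was 0.08 (adjusted p = 0.79), a fit that cannot decide here because it takes the covariate from RC/- D18 alone. Against RC/+, Mat2a in RC/- differed by -0.20 ± 0.0916 (adjusted p = 0.0878) by library totals, and with TMM factors by -0.34, which passed (adjusted p = 0.0061). This value passed by library totals as well without library 13 or without library 14 (-0.25 and -0.24, adjusted p of 0.0323 and 0.0435). The proximal tubule marker sums given above were also lower in RC/- than in the other groups. Their part in the Mat2a values was not tested.

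In counts, 2 of the 10 members were called in RC/- against RC/+, both higher by library totals (Ythdf1 and Ythdf2), when 37.6% of all genes were called, 25.5% higher and 12.2% lower. With TMM factors 1 member was called (Mat2a, lower) beside 34.3% of all genes. For RC/- D18 against RC/-, 3 members were called (Mat2a higher, Ythdf1 and Ythdf2 lower) when 41.2% of all genes were, 14.3% higher and 26.9% lower, and with TMM factors 3 members were called (Ythdf3, Ythdc1 and Mat2a, all higher) beside 39.2% of all genes. For RC/- D53 against RC/-, 2 members were called (Ythdf3 higher, Ythdf1 lower) when 30.2% of all genes were, 11.3% higher and 18.9% lower, and with TMM factors 2 were called (Ythdf3 and Mat2a, both higher) beside 28.1%. The members were thus called no more often than genes in general. The libraries of the groups did not overlap for 3 members (Mettl14, Ythdf1 and Ythdf2) in RC/- against RC/+, for 3 (Mettl14, Ythdf2 and Mat2a) in RC/- D18 against RC/-, and for 0 in RC/- D53 against RC/-, where 37.6%, 27.8% and 18.8% of all genes did not overlap.

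The largest differences of the members lay near or below the median absolute difference of all genes. Their largest absolute log2 difference was 0.34 in RC/- against RC/+ (Ythdf2), where the median absolute difference of all genes was 0.35. The largest was 0.35 (Mat2a) beside a median of 0.33 for RC/- D18 against RC/-, and 0.20 (Ythdf1) beside a median of 0.26 for RC/- D53. The genes tested reach down to a mean log2 CPM of -3, while every member had at least 17.6 CPM, so this comparison is not matched for expression level. Values as close were seen without Cre, with a largest member difference of 0.133 beside a median of 0.136 in RC/+ D18 against RC/+. In RC/+ D53 against RC/+ they were 0.107 and 0.108. The standard errors of the members in the 3 comparisons that share RC/- were 0.0511 to 0.113.

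The motif deletions were also compared in kidneys without Cre. In RC/+ D18 against RC/+ no member was called by limma-trend and 0.00443% of all genes were, that is 1 gene, and in RC/+ D53 against RC/+ no member and 0.00% of all genes were called. None of the 10 members had an unadjusted p under 0.05 in either comparison, and edgeR and DESeq2 called 0 as well. Their log2 differences ran from -0.13 (Alkbh5) to 0.12 (Mat2a) in D18 and from -0.06 (Alkbh5) to 0.11 (Mettl14) in D53. Mat2a had 368, 398 and 402 CPM in RC/+ D18 and 331, 332 and 400 CPM in RC/+ D53, both overlapping RC/+. With 3 kidneys a group, the 95% intervals of the members reached from -0.35 to 0.37 over all 10, those of Mat2a from -0.09 to 0.33 in D18 and from -0.23 to 0.19 in D53, and those of Ythdf2 from -0.23 to 0.18 and from -0.17 to 0.24.

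Within the edited lines the cystic genotype was compared with its own RC/+ group. For RC/- D18 against RC/+ D18 no member was called by limma-trend, edgeR or DESeq2, 0.266% of all genes were, and 1 member had an unadjusted p under 0.05 (Alkbh5, log2 difference 0.21, adjusted p = 0.506). For RC/- D53 against RC/+ D53 no member was called by limma-trend, edgeR or DESeq2 and 2.60% of all genes were. There Ythdc1 had an unadjusted p under 0.05 (0.12, adjusted p = 0.372). Over all 22570 genes, 3013 had an unadjusted p under 0.05 in this comparison and 2011 in that of the D18 line. Mat2a differed by 0.04 in the D18 line and by 0.01 in the D53 line (-0.004 and -0.02 with TMM factors), and Ythdf2 by 0.12 and 0.14 (0.08 and 0.11 with TMM factors), none of them called. Between the edited cystic groups, RC/- D53 against RC/- D18, no member was called by any of the same tools, with 0 unadjusted p under 0.05, and 0.266% of all genes were called.

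Whether the cystic difference was unequal between an edited line and the unedited line was tested as an interaction. No member was called by limma-trend, edgeR or DESeq2, when 17.1% of all genes were called for D18 and 11.3% for D53, and the unadjusted p was under 0.05 for 1 member in D18 (Mettl14, -0.33, adjusted p = 0.165) and for 0 in D53. For Mat2a the interaction was 0.24 ± 0.13 in D18 (adjusted p = 0.23) and 0.21 ± 0.13 in D53 (adjusted p = 0.318), and 0.34 and 0.32 with TMM factors (adjusted p of 0.0889 and 0.135). For Ythdf2 it was -0.23 ± 0.126 (adjusted p = 0.236) and -0.20 ± 0.126 (adjusted p = 0.33), and with TMM factors -0.13 and -0.10 (adjusted p of 0.517 and 0.67). A difference of Mat2a or Ythdf2 between the unedited and the edited lines in their response to the cystic genotype was therefore not shown.

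The other genes of the pathway were taken as whole lists. Of 10 other m6A writers, 7 were higher in RC/- than in RC/+ and none lower by library totals, where 25.5% of all genes were called higher and 12.2% lower, with a median log2 difference of 0.33 beside 0.14 for all genes. With TMM factors 3 of the 10 were called, all higher, where 34.3% of all genes were called in either direction, and the median was 0.19. Rbm15b, an adaptor that brings the writer complex to RNA, had 35.8 ± 3.47 CPM in RC/+ and 54.2 ± 4.19 CPM in RC/- (log2 difference 0.60, adjusted p = 2.07e-05; 0.46 with TMM factors, adjusted p = 0.00027). Its relative Rbm15 was higher by 0.38 (adjusted p = 0.0253; 0.25 with TMM factors, adjusted p = 0.201). The complex subunit Cbll1 was higher by 0.34 (adjusted p = 0.017; 0.20 with TMM factors, adjusted p = 0.151). Trmt112, the partner of the ribosomal RNA methyltransferase METTL5, was higher by 0.43 (adjusted p = 0.00504; 0.29 with TMM factors, adjusted p = 0.0717).

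Mettl16, the methyltransferase that acts on the Mat2a hairpins, had 29.6 to 31.5 CPM in RC/+, 37.3 to 39.5 CPM in RC/-, 30.8 to 33.4 CPM in RC/- D18 and 30.1 to 36 CPM in RC/- D53. All 5 RC/- libraries were above all libraries of these other groups. Mettl16 was higher in RC/- than in RC/+ by 0.34 ± 0.063 (adjusted p = 0.00013; 0.20 with TMM factors, adjusted p = 0.015) and lower in RC/- D18 than in RC/- (-0.28, adjusted p = 0.000171; -0.17 with TMM factors, adjusted p = 0.0171). It was lower in RC/- D53 than in RC/- by library totals (-0.23, adjusted p = 0.00257), and missed the threshold with TMM factors (-0.14, adjusted p = 0.0628). The interaction of Mettl16 was called in D18 (-0.28, adjusted p = 0.0295) and D53 (-0.37, adjusted p = 0.00805) by library totals and in neither with TMM factors (adjusted p of 0.18 and 0.056). Of the whole writer list, 6 were lower in RC/- D18 and 3 in RC/- D53 than in RC/- (3 and 1 with TMM factors), and none higher. Of all genes, 26.9% and 18.9% were called lower by library totals. With TMM factors 39.2% and 28.1% were called in either direction.

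Of 9 other m6A readers, 1 was called in RC/- against RC/+ by library totals, where 37.6% of all genes were called (34.3% with TMM factors). Prrc2a, a reader also known from oligodendrocytes, had 219 ± 12.3 CPM in RC/+ and 327 ± 24.6 CPM in RC/- (0.58, adjusted p = 0.000172; 0.44 with TMM factors, adjusted p = 0.00285). With TMM factors 2 more readers passed, Fmr1 and Rbmx, both lower (-0.28 and -0.25). The median of the list was 0.20 by library totals and 0.07 with TMM factors. Against RC/-, 1 of the 9 was higher and 3 were lower in RC/- D18 (2 and 2 with TMM factors), and 1 was lower in RC/- D53 (1 higher and 1 lower with TMM factors). By library totals 14.3% of all genes were higher and 26.9% lower in RC/- D18, and 11.3% and 18.9% in RC/- D53.

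The methionine and SAM cycle, which feeds and drains the SAM that Mat2a helps make, moved far more than the m6A genes. Of its 21 genes, 4 were higher and 10 lower in RC/- than in RC/+ (4 and 11 with TMM factors), where 25.5% of all genes were higher and 12.2% lower. The median of the list was -0.17 by library totals and -0.31 with TMM factors. Gnmt, a glycine methyltransferase that consumes SAM, had 9.79 ± 2.13 CPM in RC/+ and 3.17 ± 1.35 CPM in RC/- (log2 difference -1.68, adjusted p = 3.29e-05; -1.82 with TMM factors). Bhmt2, which remethylates homocysteine, was lower as well (log2 difference -1.66, adjusted p = 4.82e-07; -1.79 with TMM factors), and Cbs, which draws homocysteine into transsulfuration, had a difference of -1.44 (adjusted p = 0.000143; -1.58 with TMM factors). Nnmt, which methylates nicotinamide, was higher, with 3.34 ± 0.621 CPM in RC/+ and 10.8 ± 2.99 CPM in RC/- (1.64, adjusted p = 9.81e-05; 1.505 with TMM factors). Mat1a, the SAM synthetase gene of the liver, was called higher too, but it had only 1 to 3 reads in each RC/+ library and 3 to 101 in the RC/- libraries, and no fold is given.

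Against RC/-, 10 of the 21 methionine cycle genes were higher and 5 lower in RC/- D18 (12 and 5 with TMM factors), and 9 were higher and 3 lower in RC/- D53 (11 and 3 with TMM factors). Of all genes, 14.3% were called higher and 26.9% lower in RC/- D18 by library totals, and 11.3% and 18.9% in RC/- D53. Gnmt was higher than in RC/- by 1.32 in RC/- D18 and by 1.43 in RC/- D53 (adjusted p of 9.21e-05 and 6.62e-05). None of the 21 was called in RC/- against RC/+ within the D18 or the D53 line. Only 0.266% and 2.60% of all genes were called there, so 0 of 21 does not set this list apart. The interaction was called for 8 genes in each line, where 17.1% (D18) and 11.3% (D53) of all genes were. Proximal tubule markers moved in the same comparisons: 10 of 10 were lower in RC/- than in RC/+, 10 of 10 higher in RC/- D18 and in RC/- D53 than in RC/-, and 0 called within the edited lines. Their part in the values of the methionine cycle was not tested.

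**Figure D4:**
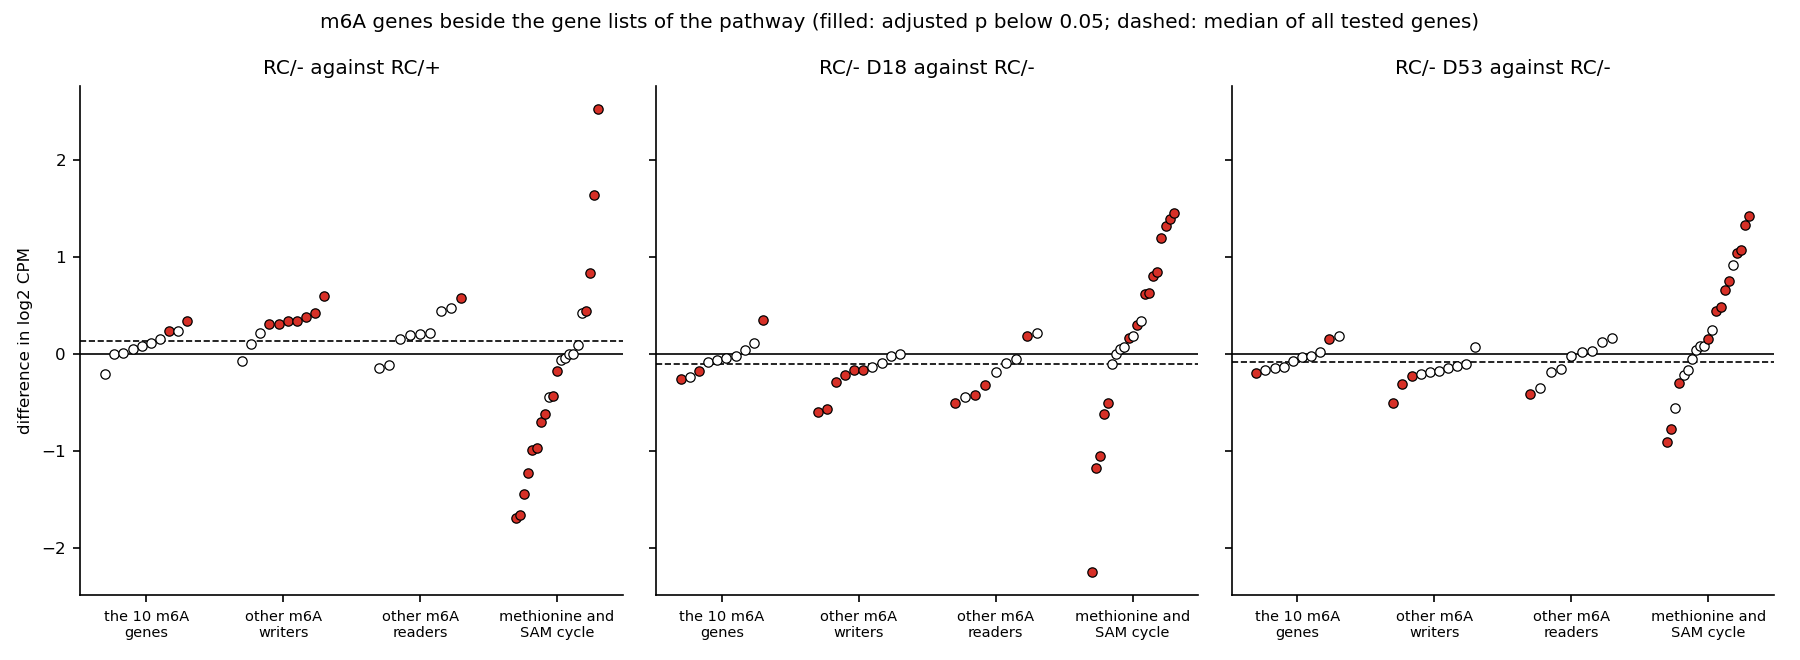
Log2 difference (y axis, difference in log2 CPM by library totals) of the 10 m6A genes and of every gene of the 3 pathway lists (x axis) in the comparisons that share the RC/- libraries. Each point is a gene, filled where the adjusted p was below 0.05, and the dashed line is the median of all tested genes (0.14, -0.10 and -0.08). The 10 m6A genes lie between -0.25 and 0.35 in all panels, while genes of the methionine and SAM cycle other than Mat1a reach -1.68 (Gnmt in RC/- against RC/+). Mat1a, with only 1 to 3 reads in each RC/+ library, lies further out in the RC/- against RC/+ and RC/- D18 against RC/- panels.

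The genes whose pattern was most like that of Mettl3 over the 24 libraries, by the root mean square difference of centred log2 CPM, were Ctr9 (0.0725), Fam120b (0.0797) and Wdr60 (0.0845), beside a standard deviation of 0.124 for Mettl3 itself. Those most like Mat2a were Myo6 (0.0909), Osbpl1a (0.0918) and Cflar (0.0966), beside a standard deviation of 0.166 for Mat2a. Myo6, Osbpl1a and Cflar had log2 differences of -0.08, -0.25 and -0.23 in RC/- against RC/+ and of 0.26, 0.34 and 0.35 in RC/- D18 against RC/-, next to -0.20 and 0.35 for Mat2a.

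Some members share sequence with other genes, and the counting setting for strand was not given in the sources used here. Of the annotated exon bases, 18.4% of Mettl3 lie on the opposite strand of Tox4 and 11.3% of Mat2a on the opposite strand of Particl. Tox4 had 1017 to 1722 reads per library, more than the 455 to 682 of Mettl3, and Particl 79 to 141. Depending on that setting, the shared bases may have added to or taken from the counts of Mettl3 and Mat2a, which was not tested. Processed pseudogenes with at least 90% identity over 100 bases exist for Wtap, Ythdf2 and Mat2a. The most read of them, Gm14292 of Wtap (99.3% identity over 452 bases), had 50 to 118 reads per library beside 1527 to 2545 for Wtap, and those of Ythdf2 had 0 or 1. How many reads of Wtap, Ythdf2 or Mat2a were placed on such copies or left uncounted was not tested, and the reads of the copies do not measure it.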

How the data were processed

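Total RNA of whole kidney was sequenced. The deposited table holds raw read counts per gene for all 24 libraries. The authors trimmed the reads, aligned them to GRCm38 and counted them per Ensembl gene with STAR, and the submitters' processing notes name Trim Galore 0.6.3 and STAR 2.5.3a. No other normalization had been applied, and 0 columns of the table were left unused. Groups came from the sample titles. Library totals were 20379982 to 30837488 counts.

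Counts were scaled by library totals to log2 CPM (edgeR 4.0.16, prior count 2), genes whose average log2 CPM reached -3 were kept, and limma-trend (limma 3.58.1, R 4.3.3) was fitted to all 24 libraries with a mean per group, as the study's methods name limma-trend, this scaling and this limit. Tests were two-sided, adjusted over 22570 genes by Benjamini-Hochberg and called below 0.05. The scripts were tested on simulated data. RPKM were computed from GENCODE M21 exons, which matched 54495 of the 54532 identifiers. Alternatives were TMM and DESeq2 size factors, edgeR's quasi-likelihood test, DESeq2 1.42.0, no filter (genes with at least 1 read), a prior count of 0.5, fits to the compared groups alone, covariates for sex (from Xist and Ddx3y, 14 female and 10 male libraries) and for libraries 20 to 27, and leaving out each library. Leaving out libraries 20 to 27 together was added after seeing the data.

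The members and lists were chosen with earlier results of these data known. Named were all 10 members, up to 5 called genes of each pathway list with the largest differences in RC/- against RC/+, and the 3 genes most like Mettl3 and Mat2a. Fmr1 and Rbmx, and the values of Mettl16 and Gnmt in other groups, were singled out after their values were seen. Of the other marker lists fixed as a check of the tissue, collecting duct had 6 of 7 genes higher and fibroblast 5 of 6 higher in RC/- than in RC/+, thick ascending limb 1 of 4 higher and 2 lower, podocyte 1 of 5 higher and 4 lower, and proliferating cells 0 of 7 and skeletal muscle 0 of 6 called. Of all genes, 25.5% were called higher and 12.2% lower in this comparison. Libraries of a group differed by more than counting noise (39 pairs, chi-square per degree of freedom of 8.45 to 48.2 over genes with at least 20 reads), so none was counted as a repeat. Nothing in the labels says more than that each library is a separate kidney sample, and p values measure the spread between these samples.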

Additional observations from a re-analysis of the deposited data

How the results depend on the processing

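The choice of scaling mattered most. Of the 30 differences of the 10 members in the 3 comparisons that share RC/-, 9 kept direction and call with TMM factors, 10 with DESeq2 size factors, 9 in edgeR's quasi-likelihood test and 10 in DESeq2, and 12 changed sign in each, none of them called under either scaling. In the order TMM factors, DESeq2 size factors, edgeR and DESeq2, the reversed log2 differences for RC/- against RC/+ were -0.054, -0.048, -0.052 and -0.049 for Wtap, -0.128, -0.122, -0.124 and -0.121 for Fto, -0.027, -0.022, -0.025 and -0.021 for Alkbh5, -0.133, -0.128, -0.131 and -0.127 for Ythdf3, and -0.083, -0.078, -0.082 and -0.078 for Ythdc1. For RC/- D18 against RC/- they were 0.101, 0.096, 0.1 and 0.095 for Mettl3, 0.061, 0.056, 0.058 and 0.055 for Wtap, 0.04, 0.035, 0.04 and 0.037 for Fto, and 0.08, 0.075, 0.081 and 0.078 for Alkbh5. For RC/- D53 against RC/- they were 0.02, 0.007, 0.018 and 0.012 for Mettl3, 0.068, 0.055, 0.064 and 0.057 for Wtap, and 0.06, 0.048, 0.053 and 0.046 for Fto. The scalings differ by construction in where the bulk of the genes is placed.

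The number of members called in RC/- against RC/+ was 1 with TMM factors and in edgeR, against 2 by library totals. In RC/- D53 against RC/- it was 1 without the filter and 1 with only the compared groups, against 2. With libraries 20 to 27 as a covariate it was 1 in RC/- D18 against RC/- (against 3) and 0 in RC/- D53 against RC/-, and Mettl3 changed sign in both (0.133 and 0.181) and Mettl14 in the latter (0.042). Leaving out these libraries, 1 member was called in RC/- D18 against RC/- (Ythdf2), and Mettl3 had 0.133. The covariate was set by the RC/- D18 libraries alone, so its fit cannot decide about RC/- D53. The cause of these changes was not tested. A prior count of 0.5 and sex as a covariate changed no direction and no call of the 30 differences. Mat2a in RC/- D18 against RC/- was called in all 9 of the other settings chosen at the outset (0.289 to 0.472, adjusted p of 7.35e-07 to 0.0421) and without any single library (0.311 to 0.405), but not when libraries 20 to 27 were left out (adjusted p = 0.0513).

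Leaving out single libraries, 0 to 2 members were called in RC/- D53 against RC/- (0 without library 16) and 0 to 1 for the D18 interaction (1 without library 7). Mettl3 ranged from -0.062 to 0.025 in RC/- D18 and from -0.104 to 0.001 in RC/- D53 against RC/-, Wtap from -0.06 to 0.004 and Fto from -0.061 to 0.004 in the latter, and Fto from -0.02 to 0.045 and Ythdf3 from -0.022 to 0.036 in RC/- against RC/+. No paired analysis was possible because the groups share no replicate numbers. The 3 to 5 kidneys a group and standard errors of 0.0511 to 0.113 limit what could be called among differences as small as these.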
